A study of Mus musculus with 6 samples.

Results

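Apln, Irs4, Fndc3c1 and Rtl8c are 4 of the 372 X-linked genes measured in differentiating female mouse embryonic stem cells, and they were selected on TPM, a length-scaled transcript abundance, which was far higher at day 4 of differentiation than at day 0. Because these values chose the genes, the rise itself is given here as a description with no test. The question is which parental allele, cas or mus, carried the new RNA. Allele shares were not used to choose the genes, although a share at day 4 has the day 4 total as its denominator.

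The cells were the line 16.7 TST with the genotype label WT in all libraries, sampled at day 0 on irradiated embryonic fibroblast feeders with LIF, and at day 4 and day 7 of differentiation through embryoid bodies, without LIF and after separation from feeders. Each day had 2 libraries of ribosome-depleted total RNA, 6 in all. The labels do not explain TST, and nothing in them says that replicates came from separate cultures, so the errors measure the spread between libraries, which may be technical. The proportions that the deposited table heads as active X and inactive X equalled the cas and mus shares in every library, day 0 included.

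In female mammals 1 of the X chromosomes is silenced early in development, when the noncoding RNA Xist coats the chromosome it is made from. A cell that carries different sequence variants on its X chromosomes lets RNA reads be assigned to one or the other. A gene that is switched on while silencing is under way can be read from both chromosomes or from the active one only. The 4 genes have unrelated products. Apln encodes apelin, a secreted peptide that binds a G protein-coupled receptor and acts in heart and blood vessel development. Irs4 encodes an insulin receptor substrate, an adaptor between growth factor receptors and PI3 kinase. Fndc3c1 encodes a protein with fibronectin type III domains. Rtl8c belongs to a family of genes derived from the Gag part of an ancient retrotransposon.

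All 4 genes lie on chromosome X of GRCm38 and are protein-coding in GENCODE M21. Apln lies at chrX:48025146-48034853 on the minus strand, Irs4 at chrX:141710998-141725263 on the minus strand, Fndc3c1 at chrX:106420041-106485401 on the minus strand and Rtl8c at chrX:53608032-53608432 on the plus strand. Measured between gene centres, Fndc3c1 lies 2.98 Mb from Xist, Irs4 38.2 Mb, Rtl8c 49.9 Mb and Apln 55.4 Mb. Irs4, Fndc3c1 and Rtl8c each overlap 1 annotated gene on the opposite strand, and Apln overlaps none. Whether the counting used strand is not given in the sources used here, so reads of such partners cannot be told apart from reads of these genes.

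The stretches just upstream of the genes are shown so that they can be read beside the levels, for the 3 genes whose window was free of annotated transcripts. They come from RefSeq on build GRCm38.p6, end before the first annotated exon base and were searched on both strands for the TATA box TATAAA, the CCAAT box, the GC box GGGCGG, the E-box CACGTG and the GATA motif AGATAA. In Apln and Irs4 capitals mark GGGCGG and, in Irs4, CACGTG. In Rtl8c and its neighbour and paralogue Rtl8b capitals mark the longest run that both share. No stretch is shown for Fndc3c1, whose window lies inside annotated transcripts.
Apln chrX:48034854-48035103, minus strand: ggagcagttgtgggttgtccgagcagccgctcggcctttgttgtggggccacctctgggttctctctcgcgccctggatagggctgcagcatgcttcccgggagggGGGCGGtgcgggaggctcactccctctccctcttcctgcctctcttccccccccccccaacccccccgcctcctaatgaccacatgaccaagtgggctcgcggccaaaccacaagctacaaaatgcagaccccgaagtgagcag
Irs4 chrX:141725264-141725467, minus strand: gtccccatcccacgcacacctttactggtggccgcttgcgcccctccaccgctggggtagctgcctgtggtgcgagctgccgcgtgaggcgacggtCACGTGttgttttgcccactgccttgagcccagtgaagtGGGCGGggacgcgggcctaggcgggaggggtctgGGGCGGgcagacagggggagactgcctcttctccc
Rtl8c chrX:53607672-53607921, plus strand: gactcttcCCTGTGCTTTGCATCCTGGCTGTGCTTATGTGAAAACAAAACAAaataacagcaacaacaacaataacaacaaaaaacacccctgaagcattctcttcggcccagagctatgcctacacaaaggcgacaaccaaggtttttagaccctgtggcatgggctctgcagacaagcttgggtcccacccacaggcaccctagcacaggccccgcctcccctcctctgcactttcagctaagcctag
Rtl8b chrX:53670438-53670687, minus strand: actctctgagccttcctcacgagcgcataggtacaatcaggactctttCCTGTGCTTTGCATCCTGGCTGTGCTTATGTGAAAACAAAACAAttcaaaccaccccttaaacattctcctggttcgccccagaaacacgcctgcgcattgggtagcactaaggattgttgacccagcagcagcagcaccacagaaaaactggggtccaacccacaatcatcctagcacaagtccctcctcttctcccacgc

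The Apln stretch of 250 bases held 1 GGGCGG and was 65.2% G or C. The Irs4 stretch of 204 bases held 2 GGGCGG and 1 CACGTG and was 69.1% G or C. GGGCGG was present in 32.7% of all 32851 RefSeq windows over 250 bases and in 25.4% over 204 bases, and CACGTG in 4.45% over 204 bases. The Rtl8c stretch held none of the 5 motifs. The Rtl8b stretch held 1 CCAAT, on the minus strand of the window, a motif present in 33.8% of windows of 250 bases. Both were 51.2% G or C, against a median of 52.4% over all windows. Rtl8c and Rtl8b shared a run of 44 bases within these windows and were 54.8% identical over the whole alignment. A match of letters is a description and not a binding site.

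Library depth in the allele table ran between 113708 and 124488 allele-specific reads at day 0, between 160002 and 160218 at day 4 and between 69742 and 71193.5 at day 7. The median gene had mus shares of 48.1% and 48.2% at day 0, of 19.7% and 19.9% at day 4, and of 4.08% and 4.61% at day 7. The TPM values of the day 7 replicates lay closer together than those of the other days, and their difference in log2 TPM followed exactly from the day 0 and day 4 differences, so SDs of TPM at day 7 may be too small. The 12 autosomal marker genes of stem cells, endothelium and fibroblasts on the marker lists were not among the measured genes, so the labelled cell type was checked with X-linked markers only. The 10 X-linked pluripotency markers summed to between 1765 and 1768 TPM at day 0, between 592 and 608 TPM at day 4 and between 599 and 604 TPM at day 7. The day 7 sum is held up by Dusp9, a MAP kinase phosphatase gene, at 278 TPM at day 7, against 145 TPM at day 4, while 7 of the 10 were lower at day 7 than at day 4 and the median day 7 minus day 4 difference in log2(TPM + 1) was -1.79.

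Total expression of each gene was highest at day 4. Apln stood at 6.94 and 7.07 TPM at day 0, at 107 and 132 TPM at day 4 and at 19.5 and 18.5 TPM at day 7. Irs4 stood at 1.30 and 1.50 TPM at day 0, at 55.5 and 42.3 TPM at day 4 and at 4.01 and 4.31 TPM at day 7. Fndc3c1 stood at 1.17 and 0.990 TPM at day 0, at 67.1 and 63.4 TPM at day 4 and at 33.2 and 33.5 TPM at day 7. For these genes the libraries of different days did not overlap. Rtl8c stood at 2.40 and 2.11 TPM at day 0, at 69.9 and 71.9 TPM at day 4 and at 37.2 and 36.8 TPM at day 7, again with no overlap between days. How many of all measured genes show the same lack of overlap was not counted. The genes were chosen on these values, so the lack of overlap is a description only. In bulk RNA, a change in the number of cells that express a gene and a change in RNA per cell cannot be told apart.

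**Figure D1:**
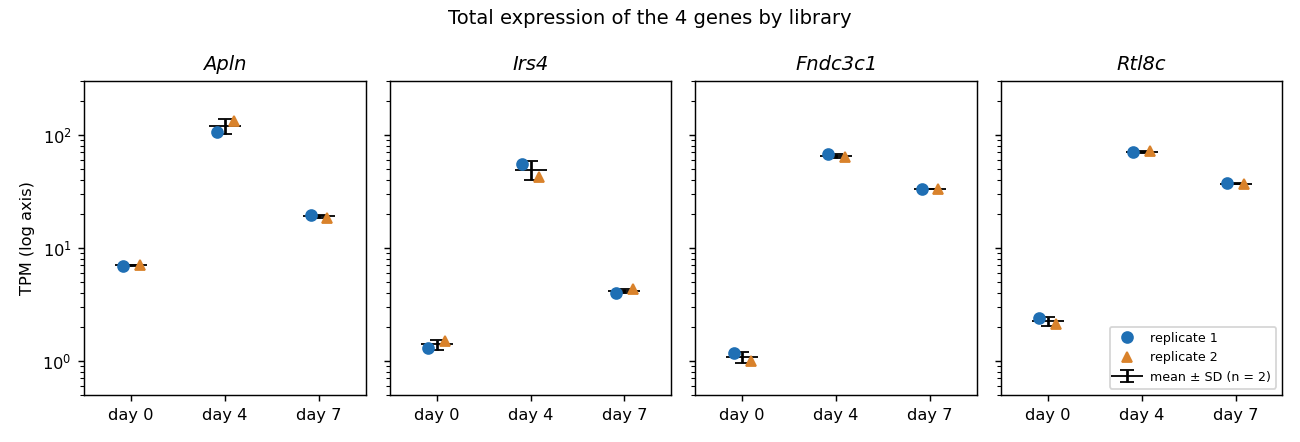
TPM of Apln, Irs4, Fndc3c1 and Rtl8c on a log axis by day, with circles for replicate 1, triangles for replicate 2 and bars for the mean ± SD of the 2 libraries. Every gene peaks at day 4, and at day 7 Irs4 has come down to about 4 TPM while Rtl8c is still near 37 TPM.

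On the log2(TPM + 1) scale, which understates the change of low genes, the day 4 minus day 0 difference was 4.99 ± 0.08 for Fndc3c1, 4.47 ± 0.07 for Rtl8c, 4.37 ± 0.20 for Irs4 and 3.90 ± 0.15 for Apln (SE, n = 2 libraries per day). The median gene of the 372 differed by 0.01. As linear ratios of mean TPM the day 4 level was 60.4 times the day 0 level for Fndc3c1, 34.9 times for Irs4, 31.5 times for Rtl8c and 17.1 times for Apln. The rule set no numerical threshold. Amot, which encodes the junction protein angiomotin, came just after the 4 genes in order of this difference, with 3.76.

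The genes differed after day 4. The day 7 minus day 4 difference was -3.26 ± 0.20 for Irs4 and -2.58 ± 0.16 for Apln, but -0.95 ± 0.04 for Fndc3c1 and -0.92 ± 0.02 for Rtl8c (SE, n = 2 libraries per day), against a median of -0.50 over the 372 genes. Irs4 at day 7 had 0.0851 of its day 4 mean and Apln 0.159, against 0.511 for Fndc3c1 and 0.522 for Rtl8c. The genes were picked for high day 4 levels, so these falls carry no test. The order of levels at day 4 was Apln, Rtl8c, Fndc3c1 and Irs4, with no overlap between neighbours in that order, and at day 7 it was Rtl8c, Fndc3c1, Apln and Irs4, also without overlap. TPM is scaled by transcript length, and the length used for each gene is not given in the sources used here.

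Genes of like pattern were sought among the 3 smallest Euclidean distances in log2(TPM + 1) over the 6 libraries, each gene centred on its own mean. For Apln these were Gabra3, a GABA receptor subunit gene, at 0.82, Irs4 at 0.86 and Kctd12b at 1.01. For Irs4 they were Apln at 0.86, Gabra3 at 1.40 and Kctd12b at 1.40. For Fndc3c1 they included Rtl8c at 0.60 and Amot at 1.59, and for Rtl8c they included Fndc3c1 at 0.60 and Amot at 1.44. The 4 genes thus formed a pair with a sharp peak, Apln and Irs4, and a pair with a smaller fall after day 4, Fndc3c1 and Rtl8c.

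At day 0 few reads could be assigned, and they came from both alleles. Apln had 15 mus and 32.5 cas reads in replicate 1, and 29 mus and 30.5 cas reads in replicate 2. Irs4 had 3 mus and 4 cas reads in replicate 1, and 1 mus and 7 cas reads in replicate 2. Fndc3c1 had 3 mus and 7.5 cas reads, and 4.5 mus and 2 cas reads. Rtl8c had 3 mus reads in each library, beside 3 and 4 cas reads. Pooled over both libraries, the mus share was 41.1% for Apln (Wilson 95% interval 32.3% to 50.6%), 26.7% for Irs4 (10.9% to 52.0%), 44.1% for Fndc3c1 (23.9% to 66.5%) and 46.2% for Rtl8c (23.2% to 70.9%). These intervals cover counting error only, and each includes 50%. None of the 4 genes passed the test for a departure from equal shares in edgeR's quasi-likelihood test, where Benjamini-Hochberg adjusted p was 0.201 for Apln, 0.215 for Irs4, 0.672 for Fndc3c1 and 0.897 for Rtl8c. By the same test 19.4% of the 372 genes had fewer and 9.68% more mus than cas reads. A p above the threshold does not show equal shares, least of all for Irs4, Fndc3c1 and Rtl8c with 13 to 17 reads in all.

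Day 0 cells grew on feeder fibroblasts. The 8 measured X-linked fibroblast markers summed to between 1114 and 1126 TPM at day 0, between 821 and 862 TPM at day 4 and between 1037 and 1049 TPM at day 7. At day 0 their median mus share was 68.5%, and the mus allele gave the larger number of reads at 6 of the 8 in edgeR's quasi-likelihood test, where 9.68% of all genes were called in this direction. Flna and Msn, the members with the highest mean TPM, had 367 and 190 TPM at day 0. At day 7, after separation from feeders, they had 393 and 197 TPM, so the sum does not measure feeders alone. The part of feeder RNA in the day 0 reads of the 4 genes was not tested.

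At day 4 nearly all reads of each gene were cas. Apln gave 38 mus of 909 reads in replicate 1 and 40.5 of 1102.5 in replicate 2, or 4.18% and 3.67% mus. Irs4 gave 10 of 296.5 and 7 of 278 reads, or 3.37% and 2.52% mus. Fndc3c1 gave 17.5 of 793.5 and 20.5 of 764.5 reads, or 2.21% and 2.68% mus. Rtl8c gave a single mus read in each library, of 247.5 and of 241 reads, or 0.404% and 0.415% mus. Both libraries of each gene lay below every day 0 library of the same gene, where the lowest mus share was 31.6% for Apln, 12.5% for Irs4, 28.6% for Fndc3c1 and 42.9% for Rtl8c. This difference between days belongs to the contrast that chose the genes, so it is given without a test. The median gene moved the same way, with mus shares of 48.1% and 48.2% at day 0 and of 19.7% and 19.9% at day 4. How many of all measured genes were separated between these days was not counted, so the separation does not set these genes apart.

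**Figure D2:**
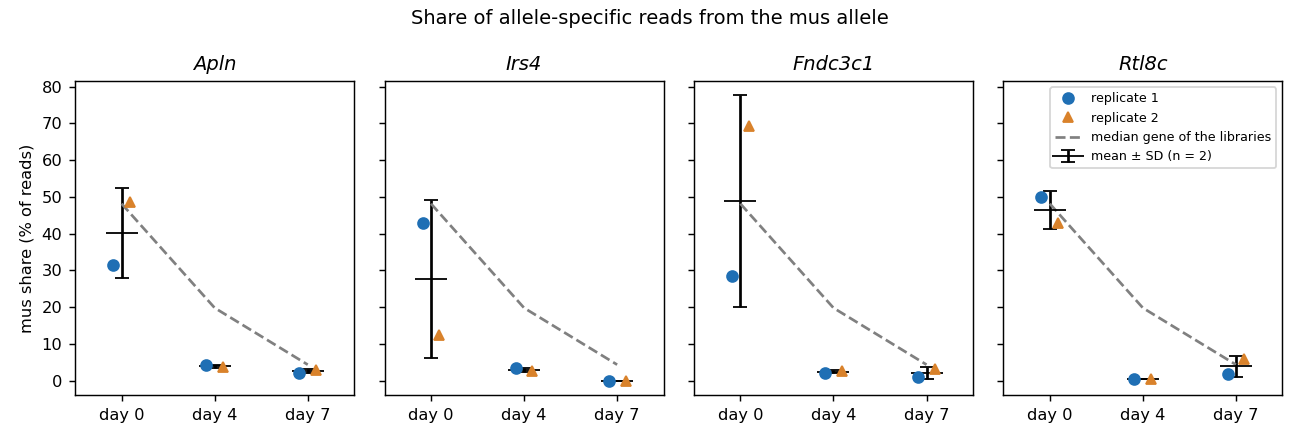
Mus share in percent of allele-specific reads by day for the 4 genes, with circles for replicate 1, triangles for replicate 2, bars for the mean ± SD of the 2 libraries and a dashed line for the median gene of the libraries. At day 4 all 8 values lie between 0.404% and 4.18%, below the median gene at 19.7% and 19.9%.

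Within day 4, mus reads were fewer than cas reads at all 4 genes in edgeR's quasi-likelihood test. The log2 odds of mus to cas reads were -4.62 ± 0.11 for Apln, -5.01 ± 0.23 for Irs4, -5.31 ± 0.13 for Fndc3c1 and -7.70 ± 0.35 for Rtl8c (SE, n = 2 libraries). The Benjamini-Hochberg adjusted p from edgeR was 1.92e-235 for Apln, 6.92e-85 for Irs4, 1.97e-211 for Fndc3c1 and 1.40e-87 for Rtl8c. Of all 372 genes 93.5% were called in this direction and 0.806% in the other, so the call by itself does not set the 4 genes apart. The spread in this fit is shared across genes, which makes its p-values very small. Over the 13 alternatives the largest adjusted p at day 4 was 0.000363 for Apln, 0.000641 for Irs4, 0.00119 for Fndc3c1 and 0.000361 for Rtl8c.

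Set against the median gene of the same libraries, the 4 genes had fewer mus reads at day 4 as well. The log2 odds relative to the median gene were -2.64 ± 0.13 for Apln, -3.03 ± 0.28 for Irs4, -3.33 ± 0.17 for Fndc3c1 and -5.85 ± 0.47 for Rtl8c (SE, n = 2 libraries). By edgeR's quasi-likelihood test the adjusted p was 1.64e-74 for Apln, 7.21e-25 for Irs4, 7.75e-73 for Fndc3c1 and 2.17e-32 for Rtl8c, with fewer mus reads in 2 of 2 libraries each. Here 4 of 4 genes were called lower, where 31.2% of all 372 genes were called lower and 31.5% higher. The genes were chosen for high day 4 levels, and the day 4 total is the denominator of the share. The calls are therefore not independent of the choice. Of the 24 other genes with a log2 rise of at least 2, the mus share was below the median gene at 20 and above it at 4. Over 12 alternatives the largest adjusted p was 0.00476 for Apln, 0.0134 for Irs4, 0.0187 for Fndc3c1 and 0.00131 for Rtl8c. Among the 269 genes with a mean of at least 100 reads at day 4, Rtl8c had the second lowest mus share, Fndc3c1 ranked 7, Irs4 ranked 9 and Apln ranked 14 from the lowest.

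Among themselves the genes differed at day 4. Pooled over both libraries the mus share was 0.409% for Rtl8c (Wilson 95% interval 0.112% to 1.48%), 2.44% for Fndc3c1 (1.78% to 3.33%), 2.96% for Irs4 (1.86% to 4.69%) and 3.90% for Apln (3.14% to 4.84%). The interval of Rtl8c lies below those of the other 3 genes, which overlap one another. The intervals cover counting error only, and reads without molecular identifiers are not independent molecules. The share at Rtl8c was as low as the share of cas reads at Xist, a gene read from the mus allele, which was 0.369% and 0.515% in the day 4 libraries.

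Multiplying TPM by the allele shares of a library gives a level per allele, on the assumption that assignable reads stand for all reads. Apln had a cas level of 103 and 127 TPM at day 4, against 4.75 and 3.63 TPM at day 0. Its mus level was 4.47 and 4.85 TPM at day 4, against 2.19 and 3.45 TPM at day 0. Irs4 had a cas level of 53.6 and 41.2 TPM at day 4, against 0.741 and 1.31 TPM at day 0. Its mus level was 1.87 and 1.06 TPM at day 4, against 0.556 and 0.188 TPM at day 0. The small mus levels of both genes were thus higher at day 4 than at day 0 in each library, beside a far larger gain on the cas allele. For Irs4 the day 0 mus levels rest on only 3 and 1 mus reads. How many of all measured genes had such a separation of mus levels was not counted.

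For Fndc3c1 the cas level was 65.7 and 61.7 TPM at day 4, against 0.838 and 0.305 TPM at day 0. Its mus level was 1.48 and 1.70 TPM at day 4, against 0.335 and 0.686 TPM at day 0. Rtl8c was the exception, with a mus level of 0.283 and 0.298 TPM at day 4, against 1.20 and 0.903 TPM at day 0. Its cas level was 69.7 and 71.6 TPM at day 4, against 1.20 TPM in both day 0 libraries. Rtl8c thus had a higher cas level and a lower mus level at day 4 than at day 0, although its mus levels rest on 2 reads in all at day 4 and 6 at day 0.

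The cas allele supplied 98.4% of the day 4 over day 0 gain of Apln, 97.7% of that of Irs4 and 98.3% of that of Fndc3c1. Leaving out any 1 library of these days moved the share to between 97.8% and 98.9% for Apln, 97.2% and 98.3% for Irs4, and 98.0% and 98.6% for Fndc3c1. For Rtl8c the cas gain of 69.4 TPM exceeded the total gain, since the mus level differed by -0.76 TPM. In ratios of mean level, the cas allele at day 4 stood at 27.4 times its day 0 level for Apln, 46.1 times for Irs4, 111 times for Fndc3c1 and 58.8 times for Rtl8c. The mus allele stood at 1.65 times for Apln, 3.95 times for Irs4, 3.12 times for Fndc3c1 and 0.276 times for Rtl8c. The day 0 side of these ratios rests on the few reads given above. Leaving out 1 library moved the cas ratio to between 24.2 and 31.7 for Apln, 36.1 and 64.0 for Irs4, 76.0 and 209 for Fndc3c1, and 57.9 and 59.6 for Rtl8c. It moved the mus ratio to between 1.35 and 2.13 for Apln, 2.64 and 7.82 for Irs4, 2.32 and 4.75 for Fndc3c1, and 0.242 and 0.322 for Rtl8c.

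**Figure D3:**
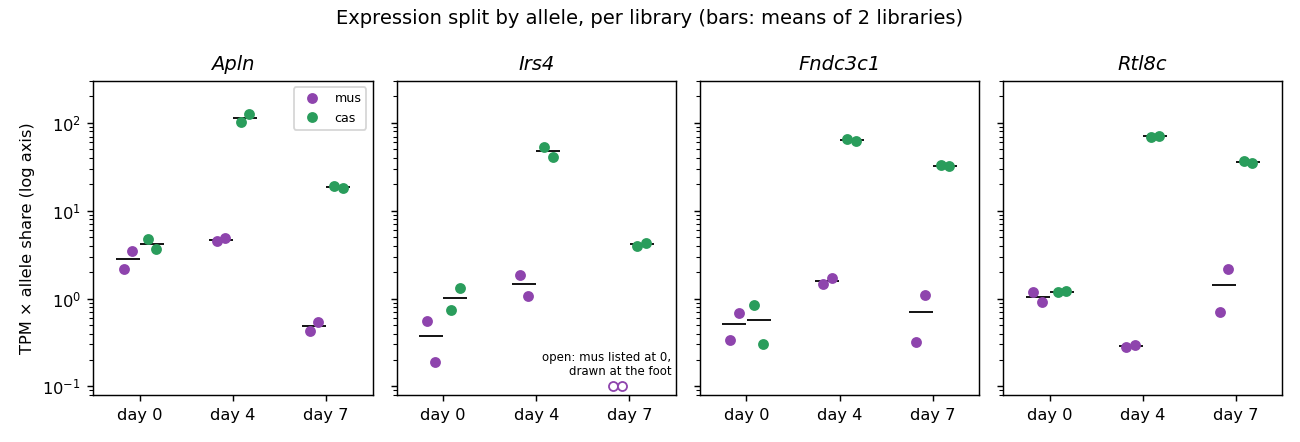
TPM multiplied by allele share on a log axis for the mus and cas alleles of the 4 genes by day, with 1 point per library and bars for the mean of 2 libraries. The day 4 cas points lie between 41.2 and 127 TPM and the day 4 mus points between 0.283 and 4.85 TPM.

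At day 7 the remaining RNA was again almost wholly cas. Apln gave 2 mus reads in each library, of 92.5 and 68 reads, or 2.16% and 2.94%. Irs4 gave 0 mus reads of 9 in each library, which allows a share of up to 16.7% over both. Fndc3c1 gave 2 of 209 and 6 of 184.5 reads, or 0.957% and 3.25%. Rtl8c gave 1 of 53 and 3 of 51 reads, or 1.89% and 5.88%. All 4 genes had fewer mus than cas reads in edgeR's quasi-likelihood test, the largest adjusted p being 9.85e-06 for Irs4, where 92.2% of all 372 genes were called in this direction and 0.538% in the other. With TMM scaling, which recentres the alleles, the calls of Irs4 (0.247) and Rtl8c (0.344) were lost.

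Relative to the median gene of the day 7 libraries only Fndc3c1 was lower, with log2 odds of -1.56 ± 0.45 (SE, n = 2 libraries) and an adjusted p of 0.00296 by edgeR's quasi-likelihood test, where 14% of all genes were called lower and 17.7% higher. The call was lost without day 7 replicate 1 (adjusted p = 0.260) and in limma (0.0977), with a range of 0.000152 to 0.260 over 12 alternatives. Apln had -1.25 ± 0.66 with an adjusted p of 0.139, and Rtl8c had -0.62 ± 0.76 with 0.578. Irs4, with no mus read, had an adjusted p of 0.335. The median gene had a mus share of 4.08% and 4.61% in these libraries.

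Between day 4 and day 7 the mus share was lower at day 7 at 68.3% of all genes and higher at 1.08%. Of the 4 genes none was called lower and 1 was called higher, Rtl8c, with a mean mus share of 3.88% ± 2.83 at day 7 and 0.409% ± 0.008 at day 4 (SD, n = 2). Its log2 odds difference was 3.10 ± 1.29 (SE) with an adjusted p of 0.0249 in edgeR's quasi-likelihood test. The call rests on 4 mus reads at day 7 and 2 at day 4, and it was lost when any of 3 libraries was left out, namely replicate 1 of day 4 (0.0864), replicate 2 of day 4 (0.0823) and replicate 2 of day 7 (0.352). The adjusted p over 13 alternatives lay between 0.00404 and 0.352. For the other genes the day 7 minus day 4 log2 odds difference was -0.61 ± 0.67 for Apln, -0.25 ± 0.55 for Fndc3c1 and -1.90 ± 2.05 for Irs4 (SE, n = 2 libraries per day). The adjusted p was 0.425, 0.699 and 0.414 in edgeR's quasi-likelihood test. Irs4 had no mus read at day 7, so its difference is poorly determined. At day 4 the mean mus shares of the 4 genes already lay between 0.409% and 3.93%. The median gene had 4.08% and 4.61% at day 7, so there was little room for a lower call.

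Across the X chromosome, genes with a larger rise by day 4 had a lower mus share at day 4. With the 4 genes left out, the median mus share at day 4 was 5.90% for the 24 genes with a log2 rise of at least 2, 10.3% for 35 genes with a rise between 1 and 2, and 18.1% for 124 genes with a rise between 0 and 1. It was 23.4% for 150 genes with a fall of less than 1 and 31.0% for 35 genes with a larger fall. At day 0 the medians of the same groups lay between 44.7% and 49.0%. Over the 366 other genes with reads at day 4, Spearman's rho between rise and mus share was -0.530 and Pearson's r was -0.478. These values describe genes that share the same 4 libraries and are given without p. The day 4 total enters both the rise and the share, so the measures are not independent. No minimum of reads at day 4 was set.

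Of the 24 other genes with a rise of at least 2, the mus share at day 4 was below the median gene at 20 and above it at 4, Xist, Jpx, Ftx and Pim2, which were named after their values were seen. Xist, Jpx and Ftx are noncoding RNA genes of the X-inactivation centre, and Pim2 encodes a kinase. Amot had 2.72% ± 0.411 mus reads at day 4 (SD, n = 2). Gabra3 and Kctd12b, the nearest genes in pattern to Apln and Irs4, had 2.28% ± 0.939 and 6.85% ± 3.05 mus reads at day 4 (SD, n = 2).

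**Figure D4:**
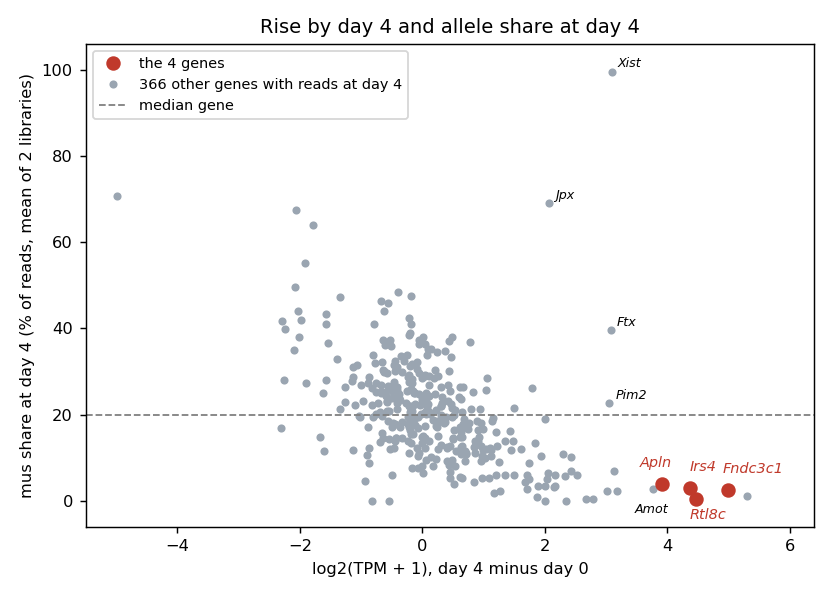
Mus share at day 4 in percent (mean of 2 libraries) against the day 4 minus day 0 difference in log2(TPM + 1), with 1 point per gene, the 4 genes in red and the median gene as a dashed line. The 4 genes lie at the lower right, with rises between 3.90 and 4.99 and mus shares between 0.409% and 3.93%.

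The nearest measured genes on either side of the 4 genes covered a wide range of mus shares. Ocrl, an inositol phosphatase gene 59.3 kb from Apln, had 47.1 TPM ± 1.64 at day 4, against 44.2 ± 0.939 at day 0, and a mus share of 22.4% ± 0.552 at day 4 (SD, n = 2). Xpnpep2, an aminopeptidase gene 73.9 kb on the other side, had 3.49 TPM ± 0.215 at day 4, against 12.1 ± 0.778 at day 0, and 36.6% ± 8.88 mus reads at day 4. Relative to the median gene at day 4 the log2 odds were 0.20 ± 0.10 for Ocrl and 1.18 ± 0.60 for Xpnpep2 (SE, n = 2 libraries), and neither passed edgeR's quasi-likelihood test (adjusted p = 0.0775 for each). Apln thus had the lowest mus share of the 3 genes at day 4.

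Col4a5, a basement membrane collagen gene 21.8 kb from Irs4, had 5.06 TPM ± 0.190 at day 0, 4.42 ± 0.292 at day 4 and 60.5 ± 0.895 at day 7 (SD, n = 2). Its mus share was 7.70% ± 7.82 at day 4, against 98.3% ± 2.38 at day 0, and at day 4 it was lower than the median gene (adjusted p = 0.00279 by edgeR's quasi-likelihood test). Nxt2, an RNA export factor gene 502 kb away, had 20.2% ± 3.28 mus reads at day 4. Beside Fndc3c1, the glycolytic gene Pgk1 had 8.04% ± 0.937 and the lysophosphatidic acid receptor gene Lpar4 10.1% ± 1.90 mus reads at day 4, and both were lower than the median gene in edgeR's quasi-likelihood test (adjusted p = 6.62e-12 and 1.07e-12). Lpar4 also peaked at day 4, with 11.1 TPM ± 0.421 at day 0, 63.6 ± 3.29 at day 4 and 2.20 ± 0.024 at day 7 (SD, n = 2). Mospd1, 238 kb from Rtl8c, had 11.8% ± 3.02 mus reads at day 4 (SD, n = 2), fewer than the median gene in the same edgeR test (adjusted p = 0.0075).

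Rtl8b, 60.7 kb from Rtl8c on the opposite strand, followed it in level, with 8.53 and 12.1 TPM at day 0, 71.4 and 81.3 TPM at day 4 and 43.0 and 41.8 TPM at day 7. Its mus share was 0.656% and 0.441% at day 4, against 8.20% and 17.2% at day 0, and it was lower than the median gene at day 4 with log2 odds of -5.66 ± 0.34 (SE, n = 2 libraries, adjusted p = 7.47e-55 by edgeR's quasi-likelihood test). Unlike Rtl8c, Rtl8b had fewer mus than cas reads already at day 0 (adjusted p = 5.06e-09 in the same edgeR test), although the difference between the genes was not tested. The coding sequences of Rtl8c and Rtl8b were 80.7% identical, with 41 bases as the longest shared run. Rtl8b and Rtl8a had identical coding sequences over 339 bases, so reads listed under Rtl8b could also come from Rtl8a.

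Of the Rtl and related Gag-derived genes 4 were measured. Relative to the median gene at day 4, Rtl8c and Rtl8b were lower, Pnma5 was higher, at 49.5% ± 1.65 mus reads (SD, n = 2), and Ldoc1 did not pass the test, at 12.3% in both libraries. Pnma5 and Ldoc1 had lower levels at day 4, at 43.8 TPM ± 1.71 and 15.2 ± 0.796, against 190 ± 44.5 and 28.9 ± 6.03 at day 0 (SD, n = 2). The family thus did not move as a whole.

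Other lists were read in the same edgeR test of mus share at day 4 relative to the median gene, where 31.2% of all 372 genes were lower and 31.5% higher. Of 16 listed fibronectin type III and cell adhesion genes 6 were measured, and all 6, the chosen Fndc3c1 among them, were lower, and the median log2 rise of this list by day 4 was 2.09, against 0.01 over all genes. Its member Tspan7, a tetraspanin gene, had a mus share of 10.9% and a rise of 2.30. Of 19 measured insulin, PI3 kinase and MAPK signalling genes, Irs4 among them, 6 were lower, 5 higher and 8 did not pass, shares near those over all genes, with a median rise of 0.40. The list's largest levels were those of Dusp9 and Pim2. Of 10 secreted ligands and binding proteins, Apln among them, 2 were lower, 4 higher and 4 did not pass, with a median rise of -0.24. Of 19 differentiation genes 7 were lower, 5 higher and 7 did not pass, with a median rise of -0.09.

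Apln is also a marker of endothelial cells. The 3 other measured X-linked endothelial markers summed to between 229 and 230.4 TPM at day 0 and between 309 and 310.2 TPM at day 4. At day 7 they summed to between 313 and 314 TPM, so their sum had no peak at day 4. The members differed, however. Msn had 190 TPM at day 0, 161 TPM at day 4 and 197 TPM at day 7. Tspan7 was highest at day 4, with 23.3, 119 and 96.6 TPM on the same days. Of the 3 markers 1 was lower at day 4 than at day 0, and 2 were lower at day 7 than at day 4. This list is not specific, since its member Msn is also on the fibroblast list and Tspan7 on the adhesion list. The part of endothelial cells in the Apln level was not tested. The 5 trophoblast markers summed to between 510 and 541 TPM at day 0, near 141 TPM at day 4 and between 153 and 161 TPM at day 7. Most of the day 0 sum came from Rhox9 at 279 TPM and Rhox6 at 203 TPM. Both are also on the pluripotency list, so the sum is not specific to trophoblast. The members of this list differed in direction after day 4, with Rhox9 at 12.6 TPM at day 7, against 69.8 TPM at day 4, while the median day 7 minus day 4 difference was 0.99 on the log2 scale. Of the 2 haematopoietic markers, Gata1 had 4.27 TPM at day 0, 0.740 TPM at day 4 and 26.4 TPM at day 7, and Cybb had 6.41, 3.21 and 0.109 TPM on the same days.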

How the data were processed

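The authors deposited allele-specific reads as estimated counts, multiples of 0.5 of which 41.4% were not whole. Deposited beside them were the fraction of each allele, equal to the recomputed share within 5.55e-16, and a table of TPM. GRCm38 and mm10 are the builds named per the submitters' processing notes, and the tools named there are STAR, Trim Galore 0.4.1, HOMER 4.10, limma and edgeR. What each tool did, how strand was used and how genes were selected is not given in the sources used here. The 4 genes and all others of the 372 genes matched GENCODE M21 and passed the minimum of 10 reads and of 1 TPM on average.

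After rounding, the allele columns of all libraries were fitted together by edgeR 4.0.16 (quasi-likelihood, R 4.3.3). The model held a term for each library and, for each day, a term for the allele, with the library total as offset for both alleles. For tests relative to the median gene, the median log odds of each library was an offset. P-values were adjusted by Benjamini-Hochberg over 372 genes and called at 0.05. The prior degrees of freedom were infinite, so spread was shared across genes (common dispersion 0.00101, 3 residual degrees of freedom). SEs of log2 odds were derived from the F statistic. On simulated day 7 against day 4 changes over 372 genes, the fit recovered 64% of 2-fold and 86% of 4-fold changes. The simulation gave every gene the same starting mus share, far above the day 4 shares of the 4 genes. These rates therefore do not apply to the 4 genes. Alternatives used DESeq2 1.42.0, limma 3.58.1, TMM scaling, other read minimums, unrounded counts, a replicate block and leaving out libraries. Same-numbered libraries were not paired: their deviations correlated between -0.13 and 0.06. Allele-specific reads differed between replicates by more than counting noise on each day (chi-square per degree of freedom between 1.79 and 3.96), so each library counted as 1 sample.

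The day 7 replicate difference in log2 TPM was fully predicted by those of days 0 and 4 (R squared 1 over 372 genes), and the SD of this difference was 0.271 at day 0, 0.161 at day 4 and 0.0415 at day 7. TPM was described and not tested.

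The 4 genes and the gene lists were chosen with earlier results of these data known. Named genes were the 4 genes, for each the 3 nearest in expression pattern and the nearest measured gene on each side, all measured Rtl-related genes, and the highest members of other lists. A gene that this rule also names is not reported here.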

Additional observations from a re-analysis of the deposited data

Results flagged for a closer look

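The log2 odds of mus to cas reads at Rtl8c were 3.10 higher at day 7 than at day 4, where 68.3% of all genes were called lower and 1.08% higher. The difference between the days passed edgeR's quasi-likelihood test (adjusted p = 0.0249), but not without day 4 replicate 1 (0.0864), without day 4 replicate 2 (0.0823) or without day 7 replicate 2 (0.352). The mus reads behind it were 1 and 3 at day 7, against 1 and 1 at day 4.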

How the results depend on the processing

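Under all alternatives run, the 4 genes had fewer mus than cas reads at day 4 and fewer than the median gene. The replicate block changed no call of the 4 genes. With it the genes departing from equal shares at day 4 numbered 350, against 351 without it. At day 0, 108 genes departed from equal shares, 40 in DESeq2, 8 in limma, and 45 to 111 without 1 library. TMM factors, which recentre the alleles by construction, gave 116 genes lower and 118 higher at day 4, against 348 and 3, 143 calls at day 7 (88 lower, 55 higher), against 345 (343 and 2), 61 between day 7 and day 4 (34 and 27), against 258 (254 and 4), and 52 lower and 57 higher at day 0, against 72 and 36. Relative to the median gene at day 7 they gave 88 and 55, against 52 and 66. With TMM the day 7 log2 odds were -6.21 for Irs4 and -0.89 for Rtl8c, no longer called, and the day 7 minus day 4 differences of Apln and Fndc3c1 were 1.12 and 1.50, not called. In limma that of Irs4 was 0.73, not called. Relative to the median gene, limma called 129 of 372 genes at day 4, against 233 in the main fit. At day 7 it called 186, against 118, and there Fndc3c1 (-1.55) was lost and Apln (-0.93, and -1.53 with TMM) was called. Without 1 library the day 7 count ran between 78 and 111, Fndc3c1 there between -2.60 and -0.92, its day 7 minus day 4 difference between -1.33 and 0.44, its day 0 odds between -1.38 and 0.95, and the day 7 minus day 4 difference of Rtl8c between 2.11 and 3.74. The cause of the changes in limma and DESeq2 was not tested. DESeq2 was not run relative to the median gene. With a pseudocount of 0 the day 4 minus day 0 log2 differences were 5.92 for Fndc3c1, 5.12 for Irs4, 4.98 for Rtl8c and 4.08 for Apln. Depth limits day 0 shares and that of Irs4 at day 7.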
